A study of Mus musculus with 14 samples.

Results

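The regions described here are the H3K9me3 peaks of 2 gene clusters in E14 mouse embryonic stem cells: the Klra cluster of chromosome 6 and the Scgb1b and Scgb2b cluster of chromosome 7. A member is a peak of either H3K9me3 list that lies wholly between the lowest start and the highest end of the annotated genes of a family (mm10). The Klra span, chr6:129831154-131247716, runs over 1.42 Mb with 14 Klra genes. The Scgb span, chr7:31263736-34100837, runs over 2.84 Mb with 48 Scgb1b and Scgb2b genes. The members number 831 of the 139726 regions in the 2 lists, 310 of them in the Klra span and 521 in the Scgb span. The clusters were selected on the H3K9me3 difference between treatments seen in these same lists, so the number, length and height by treatment are given as a description and carry no test.

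The series is a chromatin immunoprecipitation sequencing (ChIP-seq) study of E14 cells, which were grown in 2i medium with LIF on gelatin. Cells received 1 µM of doxorubicin, a drug that traps topoisomerase II on broken DNA, or DMSO as its vehicle for 6 h, followed by 6 h without drug, and were collected at 12 h. Each of the 7 groups has 2 libraries, and both were pooled by the authors into 1 peak list: H3K9me3 and H3K27ac after vehicle and after doxorubicin, HA in cells with HA-tagged p53, HA in untagged cells, and input chromatin of doxorubicin-treated cells. The treatment of the cells used for HA is not stated in the titles. Because the replicates are merged, no value below has a replicate error, no test across samples was possible, and the 95% Wilson intervals cover counting error only. The H3K9me3 lists rest on 15992125 vehicle and 14402634 doxorubicin fragments, and heights are given as fragments at the summit per 1000000 of these (FPM).

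H3K9me3, trimethylation of lysine 9 on histone H3, is a mark of heterochromatin that enzymes such as SETDB1 and SUV39H1 deposit, and it is known to lie over repeats and over arrays of duplicated genes. Klra genes encode the Ly49 receptors of natural killer and some myeloid cells, lectin-like surface proteins that bind MHC class I and either inhibit or activate the cell. Scgb1b and Scgb2b genes encode the alpha and the beta or gamma subunits of androgen-binding proteins, secretoglobins found in mouse saliva and tears, and many lie in head-to-head pairs. Both families arose by local duplication, and neither is known as a product of embryonic stem cells. The copies are close in sequence and the Ly49 gene content differs between mouse strains, so reads may be shared among copies. E14 cells do not come from the strain of the reference assembly. The part of this in the values below was not tested.

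The H3K27ac lists were read at listed genes of embryonic stem cells, natural killer cells and fibroblasts. All 10 listed embryonic stem cell genes, among them Pou5f1, Nanog and Sox2, had H3K27ac within 1000 bp of a gene end in both treatments. Of 10 natural killer cell genes only Eomes and Il2rb did, in both treatments, and of 8 fibroblast genes 1 did in vehicle and 5 in doxorubicin. The part of any other cell type in the H3K9me3 values was not tested. None of the 14 Klra and 48 Scgb genes had H3K27ac at an end in either treatment. The share of all genes with H3K27ac at an end is not given here, so these counts describe the listed genes only.

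Promoter sequence was at hand for 40 of the 62 genes (RefSeq, GRCm38.p6), and the 250 bases before the annotated start are used here. An H3K9me3 region lay over these bases at 1 Klra and 5 Scgb genes in doxorubicin. In vehicle it did so at 0 of 11 Klra and 1 of 29 Scgb promoters. Of all 27025 promoters, 587 were covered in doxorubicin and 438 in vehicle. Promoters covered after doxorubicin but not after vehicle numbered 1 for Klra and 4 for Scgb, against 0.755% of all. The reverse was found at 0 promoters of both families, against 0.204% of all. The covered promoters are shown because a region lay over some or all of the 250 bases before their gene start. At Scgb2b3 and Scgb2b20 the region stopped short of the start itself. Each is printed 5′ to 3′ on the strand of its gene, with the bases under the doxorubicin region in capitals.
Klra17: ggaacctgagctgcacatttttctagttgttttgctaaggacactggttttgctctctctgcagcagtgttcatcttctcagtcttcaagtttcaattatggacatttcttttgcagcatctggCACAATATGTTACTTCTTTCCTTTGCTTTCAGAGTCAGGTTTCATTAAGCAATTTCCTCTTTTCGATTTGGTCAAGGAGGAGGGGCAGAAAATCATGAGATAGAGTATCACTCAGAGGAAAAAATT
Scgb2b3: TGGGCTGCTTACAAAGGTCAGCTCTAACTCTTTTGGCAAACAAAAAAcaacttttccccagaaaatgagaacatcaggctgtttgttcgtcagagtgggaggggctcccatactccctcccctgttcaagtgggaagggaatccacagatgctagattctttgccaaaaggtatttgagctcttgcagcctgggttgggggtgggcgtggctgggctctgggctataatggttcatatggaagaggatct
Scgb2b4-ps: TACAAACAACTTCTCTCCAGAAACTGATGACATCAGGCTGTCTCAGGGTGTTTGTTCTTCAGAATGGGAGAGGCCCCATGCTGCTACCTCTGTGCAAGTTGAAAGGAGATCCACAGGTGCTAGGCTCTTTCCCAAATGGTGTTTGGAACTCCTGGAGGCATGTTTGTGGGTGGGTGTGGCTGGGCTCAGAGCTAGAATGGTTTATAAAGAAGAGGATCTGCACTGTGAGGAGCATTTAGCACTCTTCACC
Scgb2b20: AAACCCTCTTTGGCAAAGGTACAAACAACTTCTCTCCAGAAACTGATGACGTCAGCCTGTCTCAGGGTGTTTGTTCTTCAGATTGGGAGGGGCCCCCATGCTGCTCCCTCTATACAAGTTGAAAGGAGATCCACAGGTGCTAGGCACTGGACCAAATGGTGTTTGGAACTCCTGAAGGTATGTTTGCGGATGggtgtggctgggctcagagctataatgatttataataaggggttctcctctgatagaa
Scgb2b24: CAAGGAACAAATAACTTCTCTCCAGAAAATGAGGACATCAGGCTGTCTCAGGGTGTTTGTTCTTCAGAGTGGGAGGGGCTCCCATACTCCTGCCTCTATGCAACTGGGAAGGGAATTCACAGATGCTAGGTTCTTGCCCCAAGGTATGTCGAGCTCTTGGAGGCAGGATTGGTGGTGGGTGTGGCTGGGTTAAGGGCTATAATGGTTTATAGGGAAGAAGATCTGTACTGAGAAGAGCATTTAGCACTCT
Scgb1b30: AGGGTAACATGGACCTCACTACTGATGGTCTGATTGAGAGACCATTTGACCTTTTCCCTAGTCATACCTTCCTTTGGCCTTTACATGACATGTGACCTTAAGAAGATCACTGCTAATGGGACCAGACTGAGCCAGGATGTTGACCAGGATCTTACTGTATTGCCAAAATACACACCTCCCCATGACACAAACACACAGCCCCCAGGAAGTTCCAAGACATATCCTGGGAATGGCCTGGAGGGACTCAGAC
These stretches lie at chr6:129876673-129876922 (minus strand, Klra17), chr7:31362101-31362350 (minus, Scgb2b3), chr7:31403179-31403428 (minus, Scgb2b4-ps), chr7:33366320-33366569 (minus, Scgb2b20), chr7:33739296-33739545 (minus, Scgb2b24) and chr7:34095181-34095430 (plus, Scgb1b30). The whole stretch was covered at Scgb2b4-ps, Scgb2b24 and Scgb1b30, and part of it at the other three: 47 bases at Scgb2b3, 192 at Scgb2b20 and 126 at Klra17. Scgb1b30 was covered in vehicle too, by a region of 1.88 FPM that stood at 2.50 in doxorubicin. The regions at the others were listed in doxorubicin alone and were low, from 0.486 FPM at Klra17 and Scgb2b20, the lowest height in the doxorubicin list, to 0.972 at Scgb2b3 and Scgb2b24 and 1.25 at Scgb2b4-ps.

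Copies can be alike to the last base. The promoters of Scgb2b10, Scgb2b15 and Scgb2b17 were identical over the 250 bases, at chr7:32093953-32094202, chr7:32829654-32829903 and chr7:33056553-33056802 (all minus strand). No H3K9me3 region covered them in either treatment, so their sequence, shown as the unmarked counterpart, has no capitals.
Scgb2b15: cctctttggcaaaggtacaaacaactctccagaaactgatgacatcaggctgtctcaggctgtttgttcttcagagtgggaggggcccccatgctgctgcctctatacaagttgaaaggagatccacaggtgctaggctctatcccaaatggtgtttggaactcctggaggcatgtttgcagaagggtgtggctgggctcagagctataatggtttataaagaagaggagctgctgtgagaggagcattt
Among the 20 Scgb2b promoters the median identity of a pair was 75.7%, and 9 had a partner at 95% or more. The 11 Klra promoters were less alike, with a median of 50.5% and a highest value of 84.5%. The letters TATAAA stood on either strand in 16 of 20 Scgb2b promoters (80.0%), 3 of 9 Scgb1b promoters (33.3%) and 7 of 11 Klra promoters (63.6%), against 13% of all 27025 promoters. The dinucleotide CG was missing from 10 of 20 Scgb2b promoters (50.0%), 6 of 9 Scgb1b promoters (66.7%) and 3 of 11 Klra promoters (27.3%), against 8.26% of all. Of the 4 covered Scgb2b promoters shown, Scgb2b4-ps and Scgb2b24 were the closest pair, at 80.1% identity.

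More H3K9me3 regions, covering more of each cluster, were listed after doxorubicin than after vehicle. In the Klra cluster the number of regions went from 97 in vehicle to 213 in doxorubicin, a ratio of 2.2 (interval 1.73 to 2.79). In the Scgb cluster it went from 176 to 345, a ratio of 1.96 (1.64 to 2.35). The whole lists held 60836 and 78890 regions, a ratio of 1.30. With both lists held to equal length by their strongest regions, the cluster ratios were 1.61 and 1.45, each below its interval. Neighbouring DNA of the same length on either side of the Klra cluster had ratios of 1.19 (0.934 to 1.50) and 1.37 (1.02 to 1.83). Beside the Scgb cluster they were 1.23 (0.978 to 1.56) and 1.38 (0.931 to 2.05). The Scgb flank at higher coordinates held few regions, 42 and 58.

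**Figure D1:**
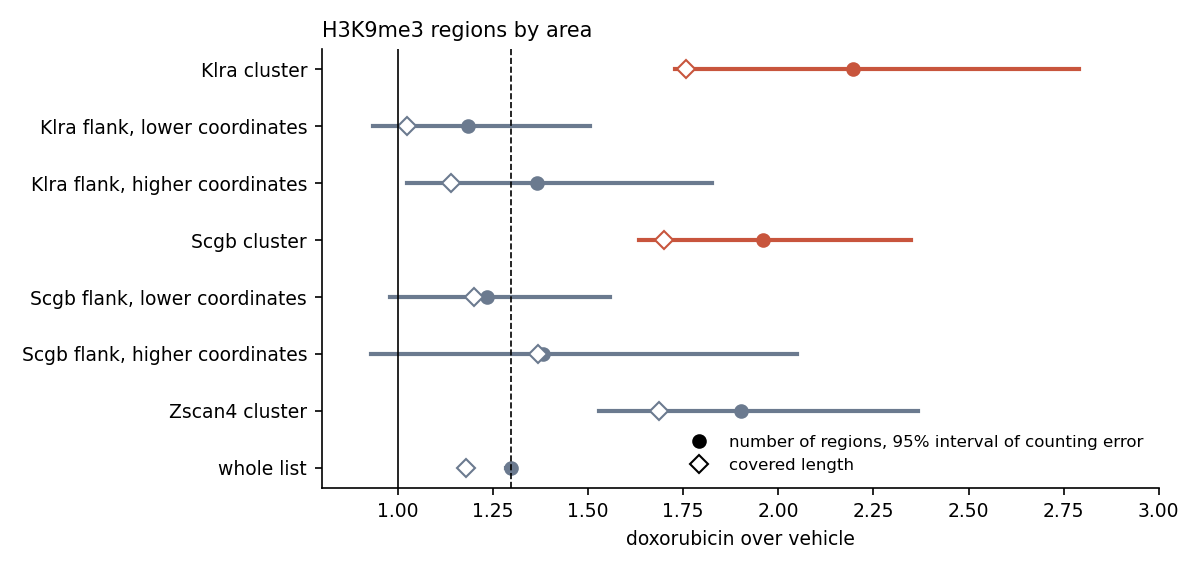
Ratio of doxorubicin to vehicle for the number of H3K9me3 regions (filled circles, bars are 95% intervals of counting error) and for the covered length (open diamonds), by area. The dashed line is the number ratio of the whole lists, 1.30, and the solid line marks no difference; the Klra, Scgb and Zscan4 clusters lie to the right of all 4 flanks in both measures.

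Covered length moved less than number. H3K9me3 regions covered 99.2 kb of the Klra span in vehicle and 174.4 kb in doxorubicin, or 7.0% and 12.3% of it, a ratio of 1.76. In the Scgb span they covered 183.5 kb and 311.9 kb, or 6.47% and 11%, a ratio of 1.70. The whole lists covered 2.58% and 3.04% of the chromosomes, a ratio of 1.18, and the 4 flanks gave 1.03, 1.14, 1.20 and 1.37. The mean region was shorter in doxorubicin, 819 bp against 1023 bp in the Klra span and 904 bp against 1042 bp in the Scgb span, as in the whole lists with 1058 bp against 1163 bp. The median length went from 513 bp in vehicle to 504 bp in doxorubicin in the Klra span and from 640 to 622 bp in the whole lists, but from 588.5 to 614 bp in the Scgb span. Both spans were denser in the mark than the genome, which had 2.22 regions per 100 kb in vehicle and 2.88 in doxorubicin. The Klra span had 6.85 and 15.0, and the Scgb span 6.20 and 12.2. Density above the genome was not particular to the clusters. The Klra flank at lower coordinates had 8.75 and 10.4, and that at higher coordinates 5.58 and 7.62. Beside the Scgb span it was 4.51 and 5.57 at lower and 1.48 and 2.04 at higher coordinates.

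Another array of duplicated genes gave like values. The Zscan4 cluster of chromosome 7, which encodes zinc finger proteins of the 2-cell embryo, had 122 regions in vehicle and 232 in doxorubicin, a ratio of 1.90 (1.53 to 2.37), with a covered length ratio of 1.69. The Zscan4 cluster held 14.9 and 28.3 regions per 100 kb, more than either of the 2 clusters. More regions in doxorubicin than in vehicle were thus also listed in a gene array outside the 2 clusters.

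Most doxorubicin regions of the clusters had no counterpart in vehicle. In the Klra span 128 of 213 (60.1%, interval 53.4 to 66.4) overlapped no vehicle region by even 1 bp, and in the Scgb span 193 of 345 (55.9%, 50.7 to 61.1), against 34.3% of the whole doxorubicin list. In the other direction 9 of 97 Klra regions (9.28%) and 20 of 176 Scgb regions (11.4%) were listed in vehicle only, against 15.6% of the whole vehicle list. In the Zscan4 cluster 129 doxorubicin regions (55.6%) were without a counterpart.

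The doxorubicin-only regions were low. Their median height was 0.833 FPM in the Klra span and 0.764 in the Scgb span, against 1.46 and 1.53 for doxorubicin regions shared with vehicle. The lowest height listed was 8 fragments (0.500 FPM) in vehicle and 7 (0.486 FPM) in doxorubicin, so a region absent from a list may lie just under its limit. At 1 FPM or more, 30 Klra and 40 Scgb regions were listed in doxorubicin only. In vehicle only there was 1 in each span. Of the doxorubicin list at that height, 11.2% had no vehicle region.

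The step in number was not confined to low regions. In 4 bands of height the ratio of doxorubicin to vehicle regions lay between 1.67 and 2.64 in the clusters, and between 1.10 and 1.75 in the whole lists. At 2 FPM or more the Klra span had 13 vehicle and 27 doxorubicin regions (ratio 2.08) and the Scgb span 18 and 46 (2.56). The whole lists had 7645 and 13369 at that height, a ratio of 1.75, the highest of their 4 bands. Of the cluster regions in doxorubicin at that height, 0 in the Klra and 1 in the Scgb span had no vehicle counterpart. In the whole doxorubicin list at that height it was 77 of 13369 (0.576%).

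**Figure D2:**
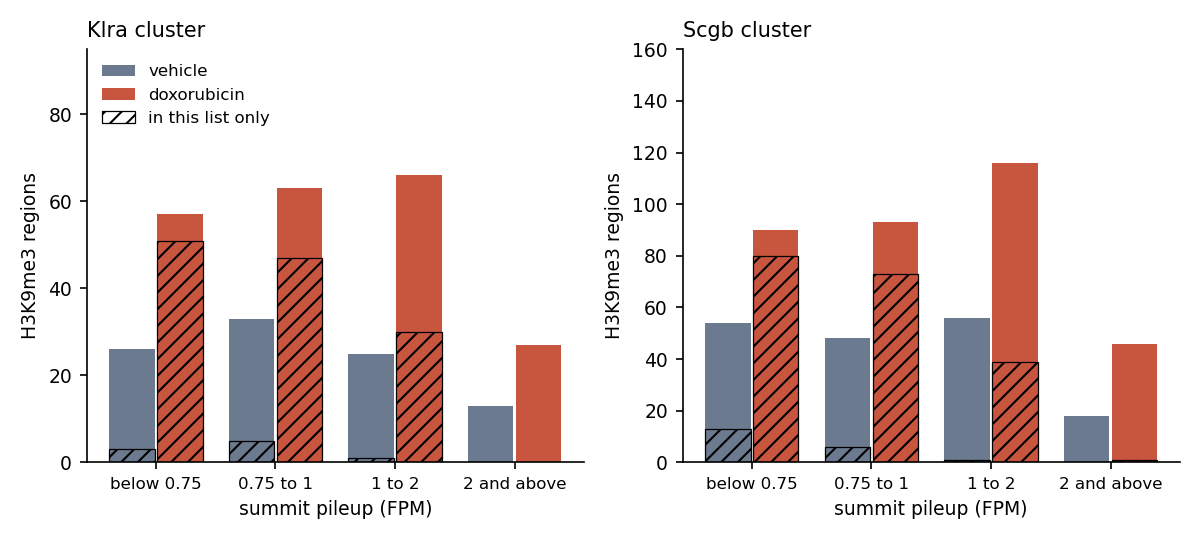
Number of H3K9me3 regions in each cluster by summit height in FPM, for vehicle (grey) and doxorubicin (red); hatching marks those absent from the other list. Doxorubicin counts are higher in all 4 bands of both clusters, while hatched regions are mostly below 1 FPM.

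Among the doxorubicin-only regions, the highest in the Klra span lay at chr6:130393620-130394248, 4248 bp from the gene Gm6584, with 26 fragments at its summit (1.81 FPM). The next were at chr6:130108874-130109517 beside Klra8, which encodes the activating receptor Ly49H, and at chr6:130215010-130215654 beside Klra7, which encodes the inhibitory receptor Ly49G, both with 25 fragments. The region at chr6:130825241-130825791 had 24 fragments, and that at chr6:130050169-130050513 inside Klra4, the gene of the activating receptor Ly49D, had 23. In the Scgb span the highest was at chr7:32588544-32588855 with 29 fragments, 16103 bp from Gm9149. It was followed by chr7:31394252-31395225 with 25 fragments, 5984 bp from Scgb2b4-ps, and chr7:33312037-33313224 with 24 inside the pseudogene Gm9167. The others, at chr7:31442118-31444815 and chr7:31678806-31679183, had 23 each. The highest vehicle-only regions were lower, with 20 fragments at chr6:130997856-130998144 and 16 at chr7:31472246-31472556.

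Where both lists had a region, most heights were above vehicle, as they were genome-wide. Overlapping regions were joined into loci, 80 in the Klra and 142 in the Scgb span. The median ratio of doxorubicin to vehicle height was 1.31 in the Klra span and 1.43 in the Scgb span. Over all 47376 shared loci it was 1.27. Relative to that median the clusters stood at 1.03 and 1.13. The ratio was above 1 at 64 Klra loci (80.0%) and 130 Scgb loci (91.5%), against 78.6% of all. A ratio of at least 1.5 was reached by 27 Klra loci (33.8%) and 65 Scgb loci (45.8%), against 28.4% of all. A ratio of at most 1/1.5 was found at 1 locus in each span, against 2.81% of all. At shared loci the Klra cluster was thus near the genome, and the Scgb cluster somewhat above it.

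**Figure D3:**
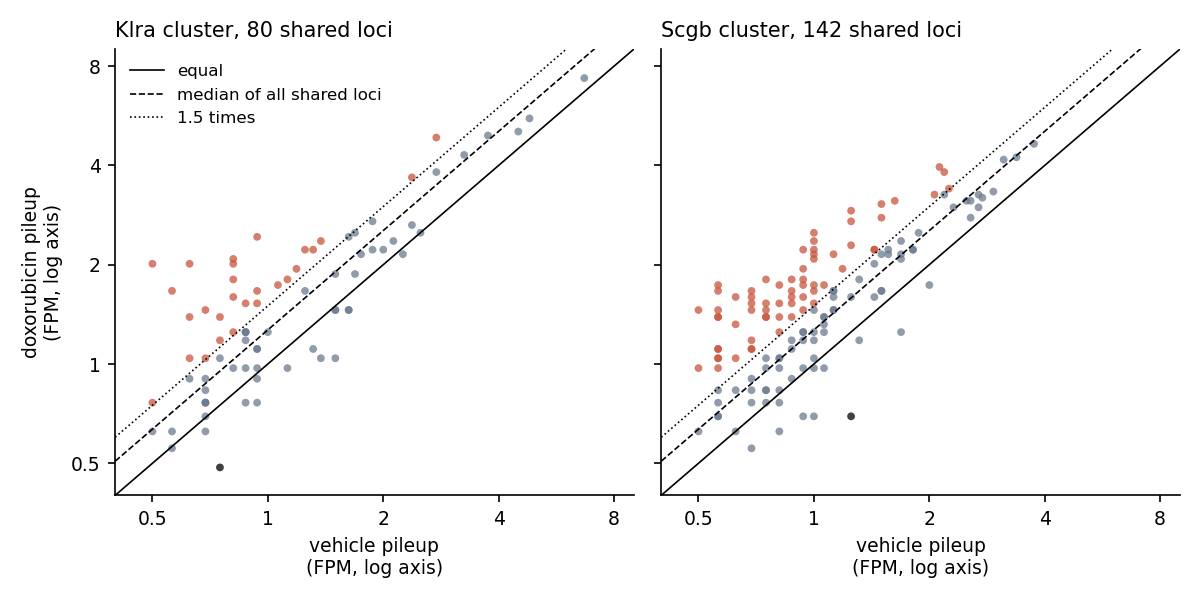
Summit height of the 80 Klra and 142 Scgb loci present in both lists, vehicle against doxorubicin, in FPM on log axes; red points are at least 1.5 times higher in doxorubicin, black points at most 1/1.5. The dashed line is the median ratio of all shared loci, 1.27; points above the dotted 1.5 line are mostly loci of low vehicle height.

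Some of the tallest regions differed little in height between the lists, and others were taller in doxorubicin. The Klra region of highest fold enrichment, chr6:130954791-130961644, had 107 fragments in vehicle (6.69 FPM) and 106 in doxorubicin (7.36 FPM), a depth-scaled ratio of 1.10. It overlapped a region of the untagged HA list, and so did the next, chr6:130809064-130812573, with 77 fragments in vehicle and 80 in doxorubicin. The longest, chr6:131056009-131064384, spanned 8376 bp in vehicle and 8423 bp in doxorubicin, with 72 and 73 fragments. The locus chr6:130530262-130533914 went from 44 fragments in vehicle to 70 in doxorubicin, a ratio of 1.77. In the Scgb span the tallest, chr7:32184609-32190172, had 60 and 67 fragments, a ratio of 1.24. The locus chr7:32896663-32897752 went from 34 to 57 fragments (1.86) and chr7:33973588-33978219 from 35 to 55 (1.74). The longest Scgb region was in doxorubicin, 9435 bp at chr7:34024817-34034251, beside the salivary alpha subunit gene Scgb1b27.

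The largest ratios were at loci of low vehicle height. At chr6:130992913-130993567 the summit had 8 fragments in vehicle and 29 in doxorubicin, a depth-scaled ratio of 4.03, and the locus overlapped an untagged HA region. At chr6:130463985-130464482 inside Gm6590 the values were 10 and 29 (3.22). A locus inside Klra17, chr6:129871290-129871818, had 9 and 24 (2.96). Klra17 encodes Ly49Q, a receptor of plasmacytoid dendritic cells. In the Scgb span the highest ratio was within the pseudogene Scgb1b34-ps, at chr7:33444630-33445866, with 9 and 25 fragments (3.08). The lowest ratios were 0.648 at chr6:130032613-130032949, with 12 and 7 fragments, and 0.555 at chr7:33562785-33563807, with 20 and 10.

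H3K9me3 was spread unevenly along each cluster. In the Klra cluster 13 of the 14 genes lie in the first 0.556 Mb and Klra2 at the far end. The stretch of 0.812 Mb between Klra1 and Klra2 held 65 vehicle and 135 doxorubicin regions, a ratio of 2.08 (1.55 to 2.79). The stretch with the 13 genes held 28 and 71, a ratio of 2.54 (1.64 to 3.91), with a covered length 2.39 times higher in doxorubicin. The median height ratio of its 22 shared loci was 1.15, below the genome median. In 3 equal parts of the Scgb span the numbers were 73 and 137, 24 and 50, and 79 and 158, ratios of 1.88, 2.08 and 2.00, so the middle part was sparse in both treatments. These divisions were drawn with the values known.

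Windows of 100 kb showed the same step along most of both spans. Of 11 Klra windows with at least 1000 bp covered in vehicle, 9 were covered at least 1.5 times more in doxorubicin. In the Scgb span it was 14 of 22 windows, against 16.1% of 13132 windows genome-wide. The median ratio was 1.64 for the Klra windows, 1.73 for the Scgb windows and 1.12 for all. Counting every window, each of which held a region in at least 1 list, doxorubicin coverage was the higher in 13 of 13 Klra and 27 of 28 Scgb windows, against 72.8% of the 20591 windows genome-wide with a region in either list.

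**Figure D4:**
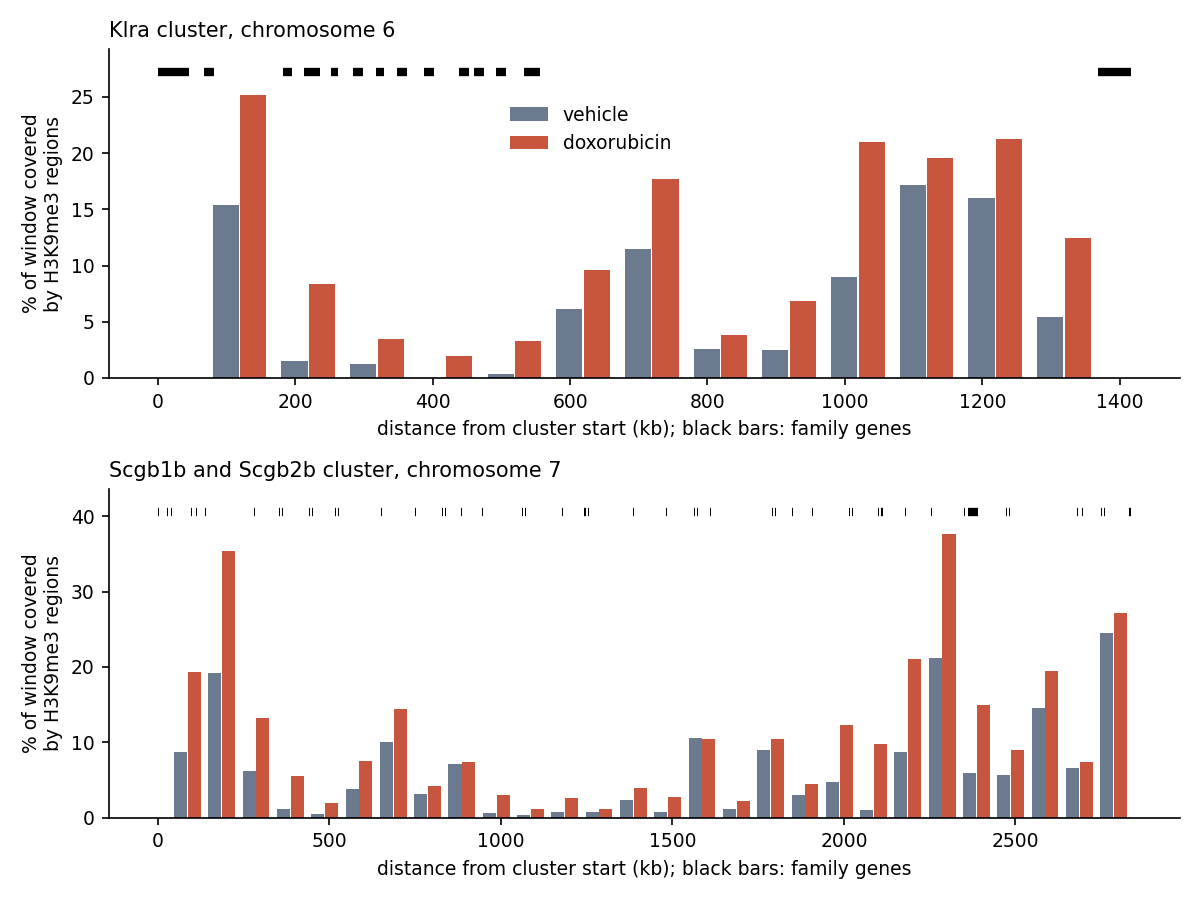
Percent of each 100 kb window covered by H3K9me3 regions in vehicle (grey) and doxorubicin (red), by distance from the start of the cluster, for windows wholly inside it; black bars above are the family genes. Doxorubicin bars are higher in 13 of 13 Klra windows and 27 of 28 Scgb windows. The least covered Klra window, 0% in vehicle and 1.98% in doxorubicin, lies over family genes. The Klra window of highest doxorubicin coverage, 25.2%, also overlaps a family gene, Klra5.

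The longest stretch free of vehicle regions in the Klra cluster was 259 kb, chr6:130139062-130398400. It holds Klra14-ps, Klra9, Klra7, Klra10, Klra13-ps, Klra3 and Klra1, among them the inhibitory receptors Ly49I, Ly49G, Ly49C and Ly49A. In doxorubicin 11 regions lay there, covering 5.39 kb, with heights from 0.486 to 1.81 FPM. In the Scgb cluster the longest such stretch, 159 kb at chr7:31603492-31762581, holds Scgb2b6, Scgb1b6-ps, Scgb2b7 and Scgb1b7 and had 14 doxorubicin regions covering 5.98 kb. The longest stretches without a doxorubicin region were 64.2 kb around Klra3 and 97.6 kb around Scgb2b8-ps and Scgb1b8-ps, and neither held a vehicle region. These stretches were sought with the values known.

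At gene ends the vehicle shares, 7.14% of Klra and 6.25% of Scgb genes, were near the 8.11% of all genes. A Klra gene had a region within 1000 bp of either end at 1 of 14 in vehicle and 5 of 14 in doxorubicin. An Scgb gene did at 3 of 48 and 17 of 48. Marked in doxorubicin only were 4 Klra and 14 Scgb genes, and in vehicle only 0 of both, against 3.04% of 44863 genes marked in doxorubicin only and 0.929% in vehicle only. The shares over all genes were 8.11% in vehicle and 10.2% in doxorubicin. Over gene bodies the counts were 4 and 7 Klra genes and 4 and 15 Scgb genes. So 3 and 11 were marked in doxorubicin only, against 4.91% of all genes. The body shares in vehicle were 28.6% of Klra and 8.33% of Scgb genes, against 19.3% of all. In doxorubicin they were 50% and 31.25%, against 22.6% of all.

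By role, the Klra genes at the edges of the array and those of activating and inhibitory receptors were as follows. Klra5, which encodes Ly49E, had the mark at an end in both treatments, at 0.875 and 0.764 FPM. Klra17, at the outer edge, had regions at its end in doxorubicin alone, the higher with 0.833 FPM, and the regions over its body went from 5 to 11. Klra2, the gene of Ly49B at the other edge, had an end region of 0.833 in doxorubicin alone, and its body regions went from 4 to 7. Among inhibitory receptors Klra9 (Ly49I) had a doxorubicin-only region over its end, chr6:130178367-130178728, with 1.32 FPM, the highest of the 4. Klra6 (Ly49F) had a doxorubicin-only end region with 0.555, and Klra1 (Ly49A) had 1 region inside its body in doxorubicin alone, with 0.764. Of the activating receptors, Klra4 (Ly49D) had 1 body region in vehicle and 5 in doxorubicin but none at an end, and Klra8 (Ly49H) had none over its body in either. Klra3, Klra7, Klra8, Klra10 and the pseudogenes Klra11-ps, Klra13-ps and Klra14-ps had no region over their bodies in either list, the nearest in doxorubicin being 2951 to 13547 bp away.

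Among the alpha subunit genes, 3 of 19 Scgb1b genes had the mark at an end in vehicle and 9 in doxorubicin. The 3 were Scgb1b3, where the height went from 0.813 to 1.39 FPM, Scgb1b34-ps, from 0.563 to 1.74, and Scgb1b30, from 1.88 to 2.50. Marked in doxorubicin only were Scgb1b27 (1.60, the highest), Scgb1b19 (0.833), Scgb1b7, Scgb1b20 and Scgb1b22-ps (0.694 each) and Scgb1b6-ps (0.486). At Scgb1b27 a vehicle region of the same locus lay 1142 bp from the gene and the doxorubicin region 950 bp, so the limit of 1000 bp sets that call, and the locus had 11 fragments in vehicle and 23 in doxorubicin. Among the beta and gamma subunit genes, 0 of 29 Scgb2b genes had the mark at an end in vehicle and 8 in doxorubicin. These were Scgb2b4-ps (1.25), Scgb2b21 (1.11), Scgb2b3 and Scgb2b24 (0.972 each), Scgb2b23-ps (0.764), Scgb2b9-ps and Scgb2b19 (0.625 each) and Scgb2b20 (0.486). Scgb2b23-ps also had 4 body regions in vehicle and 7 in doxorubicin. The subunit genes Scgb2b26 and Scgb2b27, which are known from saliva, had no region at an end in either list, the nearest lying 10307 and 9889 bp away in doxorubicin.

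In some near-identical copies the mark lay at near-identical distances. The nearest doxorubicin region was 15265 bp from Scgb1b15 and 15252 bp from Scgb1b17, whose promoters are the same over 250 bases. For Scgb2b15 and Scgb2b17 it was 12786 and 12746 bp, and in vehicle 12732 and 12929 bp. For Scgb2b10, which shares their promoter sequence, it was 9387 bp. Whether these are separate marks, or fragments placed on both copies, was not tested.

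Regions around the starts of the 20 Scgb2b genes with an annotated strand were counted in bins of 2 kb. In the 2 kb before and the 2 kb after the start, 0 genes had a region in vehicle and 5 in doxorubicin in each. The highest count, 11 genes in doxorubicin, was reached in 4 bins, of which that 16 to 18 kb downstream had 8 genes in vehicle. Of 30 bins of 2 kb out to 30 kb on either side, doxorubicin had more genes with a region in 28 and the same number in 2. For the 11 Klra genes doxorubicin was higher in 24 bins, equal in 5 and lower in 1, with the highest count 8 to 10 kb upstream, 3 genes in vehicle and 6 in doxorubicin. For the 9 Scgb1b genes most bins were equal, 20 of 30. Neighbouring genes share regions in these counts.

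**Figure D5:**
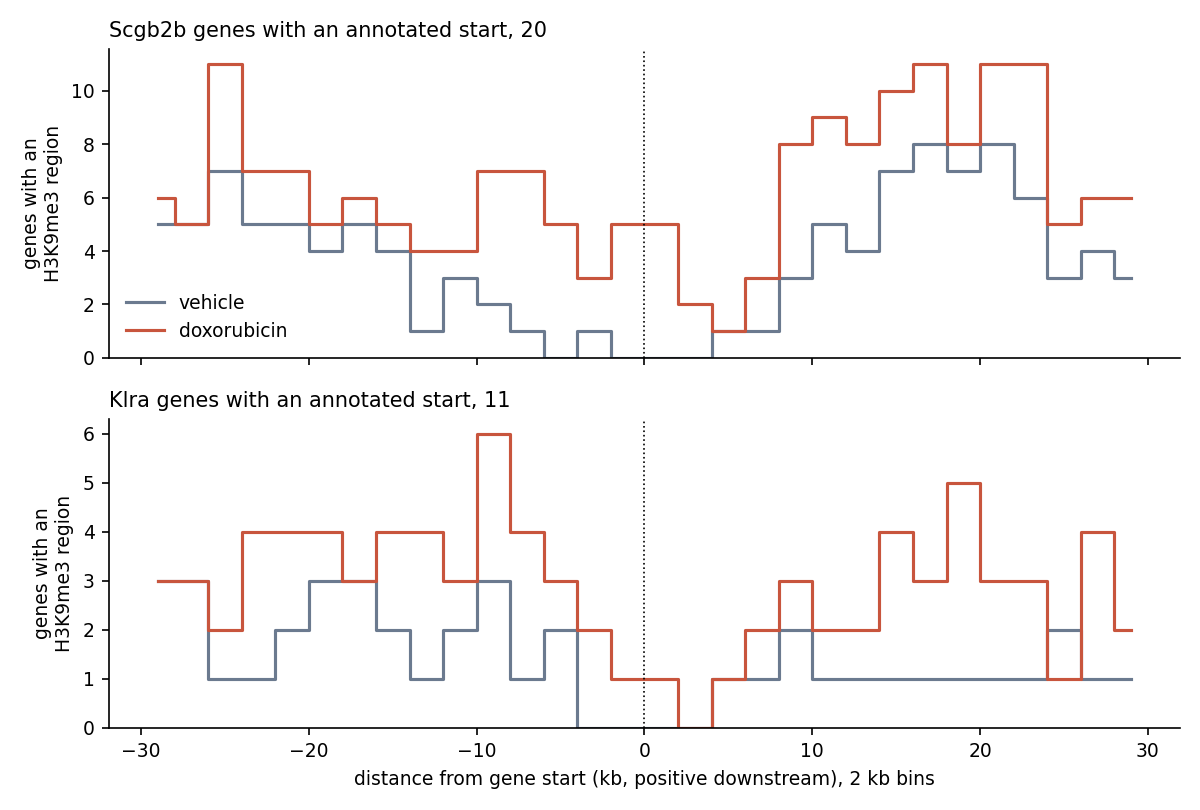
Number of genes with an H3K9me3 region in each 2 kb bin around the annotated start, for 20 Scgb2b and 11 Klra genes, vehicle in grey and doxorubicin in red, with downstream distances positive. At the Scgb2b start vehicle is at 0 and doxorubicin at 5 genes, and 16 to 18 kb downstream they are at 8 and 11 genes.

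Most members lay between genes, more so in the Scgb than in the Klra span. Of the Scgb summits, 5.11% in vehicle and 10.1% in doxorubicin were inside any annotated gene. Of the Klra summits 27.8% and 27.2% were, against 33.1% and 32.0% over the whole lists. Family genes alone make up 4.01% of the Scgb span and 19.8% of the Klra span. Summits inside family genes were 4.55% in vehicle and 6.67% in doxorubicin in the Scgb span. In the Klra span they were 12.4% and 12.2%, below the family share of the span. The other genes of the Scgb span, 39 of 40 of them pseudogenes, had the mark at an end at 10 in vehicle and 20 in doxorubicin. These were 25% and 50%, with 11 in doxorubicin only, against 8.11% and 10.2% of all genes. The Scgb family had 6.25% and 35.4%, so a higher share in doxorubicin was not particular to it. Of 19 other genes of the Klra span, 2 and 4 had the mark at an end. Of 6 pseudogenes of the ribosomal protein gene Rpl23a dispersed in the Scgb span, 4 were marked in each treatment, 3 of them the same genes. Outside the Klra span lie 45 other genes of the natural killer complex and its lectin relatives on chromosome 6. Of these, 13 (28.9%) had the mark at an end in each treatment, 11 of them the same genes. The 5 other secretoglobin genes had it at 0 in both.

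The active mark was scarce in both spans. H3K27ac regions numbered 1 in vehicle and 2 in doxorubicin in the Klra span and 7 and 6 in the Scgb span. That is 0.706 to 2.47 per Mb, against 30.1 and 41.1 per Mb over the chromosomes. The H3K27ac peak shared by both treatments in the Klra span lay inside Klra17, chr6:129856846-129857741, with 21 fragments in vehicle (1.02 FPM) and 18 in doxorubicin (1.06 FPM). A doxorubicin H3K9me3 region with 16 fragments overlapped it.

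In the Scgb span the 4 shared H3K27ac loci went in different directions. Between treatments chr7:32270496-32271363 went from 51 fragments in vehicle to 20 in doxorubicin, a depth-scaled ratio of 0.475, and chr7:34046503-34047762 from 53 to 27 (0.617). A ratio of at most 1/1.5 was found at 10.6% of the shared H3K27ac loci genome-wide and a ratio of at least 1.5 at 25.9%. The locus chr7:33955317-33956354, 2944 bp from Scgb1b26-ps, had 44 and 41 fragments (1.13). At chr7:34036434-34037728, over the pseudogene Gm12760, H3K27ac went from 12 to 30 fragments (3.03). H3K9me3 was listed at all 4 loci in both treatments. Regions in 1 treatment only numbered 3 in vehicle and 2 in doxorubicin, against 28.8% and 46.5% of the lists genome-wide.

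HA-p53 had 3 regions in the Scgb span, or 1.06 per Mb against 4.12 per Mb over the chromosomes, and H3K27ac of the doxorubicin list overlapped each. The strongest covered Gm12760, chr7:34036608-34037440, with a fold enrichment of 48.0 over the input and H3K9me3 summits of 29 fragments in vehicle and 32 in doxorubicin. The others, chr7:33779106-33779523 near Gm12782 (12.9) and chr7:34008533-34009009 near Gm12755 (4.59), had no H3K9me3 in either list, and their H3K27ac, 8 fragments each, was listed in doxorubicin only. In the Klra span HA-p53 had 4 regions, or 2.82 per Mb. The strongest, inside Klra4 at chr6:130052094-130052506 with a fold enrichment of 8.23, was also listed in untagged cells, with a pileup of 48.4 against 24.1 once scaled to input depth. It overlapped H3K9me3 and H3K27ac listed in doxorubicin only. The other Klra p53 regions had fold enrichments of 2.87 to 5.33.

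The untagged HA list had 10 regions in the Klra span, 7.06 per Mb against 1.43 per Mb over the chromosomes, and 0 in the Scgb span. Of these 10, 8 overlapped H3K9me3 in doxorubicin and 6 in vehicle. The input list had 0 regions in both spans. As a share of the members, 6 of 97 vehicle and 8 of 213 doxorubicin Klra regions met an untagged region, and the other members met none. The shares of such overlaps over the whole lists are not given here, so these counts describe the Klra span only. Among 18 genes for writers and cofactors of H3K9me3, 16 had H3K27ac at an end in vehicle and 17 in doxorubicin. The added gene was Dnmt3b, which encodes a DNA methyltransferase. The whole H3K27ac lists held 82177 regions in vehicle and 112259 in doxorubicin. The share of all genes with H3K27ac at an end is not given here, so the counts describe these 18 genes only.

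At the span edges the choice of limits touched few regions. The first doxorubicin regions inside the Klra span lay 3202 and 11449 bp from its 2 ends, with 0.972 and 2.15 FPM. The first outside lay 1301 and 7957 bp away, with 1.25 and 0.625. For the Scgb span the inner ones lay 17660 and 247 bp from the ends, with 0.972 and 1.74, and the outer ones 5796 and 1348 bp away, with 0.764 and 0.833.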

How the data were processed

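The 7 peak lists were made by the authors from 14 libraries, pooled as pairs. Alignment used Bowtie2 2.2.6 and peak calling MACS2 2.2.5, per the submitters' processing notes. Reads were aligned to mm10 plus 1 extra contig, per the file headers, in paired-end mode, with a q cutoff of 0.05 and duplicates removed. As deposited, each summit has a signal, the number of overlapping fragments, a significance as −log10 of its q-value, and a fold enrichment, the ratio of that signal to the background. Lengths of intervals are deposited in bp. Per the file headers, the H3K9me3, H3K27ac and input lists were called with no control and a genome-wide background, the untagged HA list against the input, and the HA-p53 list against the input with a local background.

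Summits of an interval were joined and the highest kept, and pileup was divided by the fragments of the list and given per 1000000 (FPM). Lists were compared by overlaps of 1 bp, and for 60464 simulated regions the counts differed from those of bedtools 2.31.1 in 0 cases. Software was Python 3.11.15, numpy 2.4.6, pandas 2.3.3, scipy 1.17.1, Biopython 1.88 and matplotlib 3.10.9.

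Genes and promoters came from RefSeq tables of GRCm38.p6, with 44863 genes. Of the Klra entries, 2 (Klra16 and Klra23) carry positions on other scaffolds and were left out of the span. Named regions were, per span and treatment, the 5 of highest fold enrichment, the 3 longest, the 5 highest in 1 treatment only and the 5 most extreme height ratios in each direction, of which the leading ones are printed. All family genes are accounted for. Spans, lists and rules were chosen with earlier results of these data known. Alternatives covered stricter −log10 q, fold enrichment and height limits, equal list lengths, merging, input regions, overlap, gene windows and window sizes. Depth was 14402634 to 15992125 fragments for H3K9me3, which limits a listed region to at least 7 or 8 fragments. Repeat annotation and genome sequence were not used here.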

Additional observations from a re-analysis of the deposited data

Results flagged for a closer look

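The untagged HA list, which takes no part in the treatment comparison, had 10 regions in the Klra span where the input list had 0. Their pileups, scaled to input depth, ran from 16.7 to 25.4, and 6 of them met a vehicle and 8 a doxorubicin H3K9me3 region. How often untagged regions met H3K9me3 over the whole lists is not given here. The part of the 10 untagged regions in the H3K9me3 values at those places was not tested.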

How the results depend on the processing

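In 88 values recomputed under other settings, doxorubicin over vehicle stayed above 1 for number, covered length and median height in both clusters, and 18 of the 88 moved. With lists of equal length the number ratio was 1.61 for Klra and 1.45 for Scgb, the doxorubicin-only regions numbered 77 and 113, and the vehicle-only Klra regions 15. At 1 FPM or more in both lists, doxorubicin-only regions numbered 55 and 89 and vehicle-only regions 2 and 5. With −log10 q held to 5 or above there were 78 doxorubicin-only Klra regions and 9 vehicle-only Scgb regions, and a fold enrichment of 4 or above left 11 of the latter. Merging regions within 1000 bp left 4 and 11 vehicle-only regions, and asking for 50% overlap gave 14 vehicle-only Klra regions. Divided by the genome median, the median height ratios were 1.03 and 1.13. In windows of 200 kb, 100% of 5 Klra windows passed the ratio of 1.5. The stricter limits, merging and wider windows leave fewer regions or windows by construction, and the 50% rule counts partly overlapped regions as unshared. Equal lengths shorten the doxorubicin list only. Vehicle-only regions then rose from 9 to 15 in the Klra span and from 20 to 29 in the Scgb span. Leaving out input regions, or counting regions that cross a span end, changed no value and could change none. The input list had 0 regions in both spans, and no H3K9me3 region crossed a span end. The values under these settings are among the 88. No paired analysis was possible because the replicates of a group were merged, and no replicate could be left out for the same reason. Depth limits the lists at 7 or 8 fragments, so a region in 1 list only may lie just below the limit of the other.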
